A study of Mus musculus with 4 samples.

Results

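Cohesin is the ring-shaped protein complex that holds sister chromatids together and shapes chromatin loops, and it exists in mitotic and meiotic forms that differ in their subunits. The 9 genes described here are its core subunits: the 4 meiotic members Rec8, Smc1b, Stag3 and Rad21l, and the 5 members of the mitotic complex, Rad21, Smc1a, Smc3, Stag1 and Stag2. They were chosen by name, and all 9 were among the 19321 genes of the deposited table. Their levels were followed in germ cells and in somatic cells of XX gonads from C57BL/6 mouse embryos on 4 consecutive embryonic days, E11.5 to E14.5, with no genetic change or treatment named in the labels. Gonads were dissociated with TrypLE, and RNA of single cells was captured at its 3′ end on the 10x platform (kit version 2). Each stage is 1 library, so the stage and the library cannot be told apart and no difference between stages could be tested. How many embryos went into a library is not given in the sources used here.

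In every cohesin ring an SMC1 subunit pairs with Smc3, a kleisin subunit closes the ring, and a STAG subunit binds the kleisin. Rad21 is the kleisin of mitotic cells, and Rec8 and Rad21l are the kleisins of meiosis. Smc1b takes the place of Smc1a and Stag3 that of Stag1 or Stag2, whereas Smc3 serves both forms. In the fetal ovary germ cells stop dividing by mitosis and enter meiosis, and Stra8 is the gatekeeper gene of that entry. Rec8 keeps sister chromatids together through the long meiotic prophase of oocytes, and the synaptonemal complex, which joins homologous chromosomes, is built on this cohesin axis.

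By RefSeq (GRCm38.p6, the build that mm10 names) the meiotic genes lie at chr14:55618002-55625395 (Rec8), chr15:85064689-85131957 (Smc1b), chr5:138272514-138312397 (Stag3) and chr2:151644366-151670622 (Rad21l). Of the mitotic genes, Rad21 lies at chr15:51962604-51993538, Smc3 at chr19:53600396-53645831 and Stag1 at chr9:100597709-100958544. Smc1a, at chrX:152016428-152061973, and Stag2, at chrX:42149297-42277186, are X-linked.

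The RefSeq promoter table of the same build held 7 of the 9 members, all but Rad21 and Stag2, and the 250 bases before each listed start were searched. The sequences below are shown because the 4 meiotic members, whose germ cell levels are described next, differ there in base composition and in the motifs they hold. They are written 5′ to 3′ on the gene's strand, with the searched motif in capitals. For Rec8 (chr14:55618116-55618145, plus strand) and Stag3 (chr5:138280327-138280356, plus strand) the 30 bases around the match are given, which GENCODE vM21 annotates as exonic in at least 1 transcript. For Smc1b (chr15:85131965-85132077, minus strand) and Rad21l (chr2:151668534-151668783, minus strand) the stretch shown overlaps no annotated exon. The listed starts of Rec8, Stag3 and Rad21l lie inside the RefSeq span of the gene, since a gene can have several starts, so the Rad21l stretch is intronic for the longest transcript. The Smc1b stretch lies outside its gene, upstream of it.
Rec8: gtgtgcacctgaTCCCGCtggagggcgaca
Smc1b: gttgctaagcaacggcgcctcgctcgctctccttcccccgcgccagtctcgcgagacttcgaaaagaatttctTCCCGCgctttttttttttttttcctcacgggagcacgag
Stag3: cgcgctggagccCACGTGacaggactgcac
Rad21l: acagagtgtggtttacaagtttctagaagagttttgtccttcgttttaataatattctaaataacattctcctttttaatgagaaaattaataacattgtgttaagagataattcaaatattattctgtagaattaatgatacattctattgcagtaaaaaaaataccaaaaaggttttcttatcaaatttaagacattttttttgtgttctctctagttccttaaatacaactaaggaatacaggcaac
TCCCGC, the core of the E2F6 site (E2F6 is a repressor of germ cell genes in somatic cells), was searched on both strands with GCGGGA. It stood 38 bases before the listed start of Rec8 and 47 before that of Smc1b. Among the mitotic members it stood 15 bases before the start of Stag1 and, on the opposite strand, 116 before that of Smc3. The windows of Stag3, Rad21l and Smc1a held no match, and 16.9% of the 32851 promoter windows of the table held one. CACGTG, the E-box that reads the same on both strands, was found only in Stag3 among the 7 windows, 170 bases before the start, against 6.02% of all windows. GGGCGG (with CCGCCC), the GC box, was found in Stag1, Smc3 and Smc1a and in none of the 4 meiotic members, against 32.7% of all windows. TGACCT (with AGGTCA), a nuclear receptor site, was found in none of the 7, against 14%. The Rad21l window had 25.6% G and C with 1 CG dinucleotide, whereas the windows of Rec8, Smc1b and Stag3 had 56%, 58% and 62.8% with 10, 25 and 26. The median over all windows was 52.4% with 6 CG dinucleotides. These matches describe letters in a window and not bound sites.

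The libraries held 4787 to 4916 cells and 69458291 to 80377418 UMIs (unique molecular identifiers, each counted as 1 captured RNA molecule) per library. A cell was called a germ cell when at least 3 of Dazl, Ddx4, Dnd1, Mael, Dppa5a and Mov10l1 were above 0, which gave 245, 650, 756 and 2410 germ cells in stage order. Somatic cells were the 4465, 4055, 3954 and 2005 cells that were neither germ cells nor erythroid. Between 38 and 79 kept cells per library had exactly 3 of the markers and between 101 and 168 had exactly 2. Of the germ cells, 99.2%, 99.1%, 96.7% and 92.9% lay in clusters that carried the germ name. That name rests on the same 6 markers, so this is no separate support for the call. Of 20 other germ cell genes listed, the 6 to 15 with at least 50 CPM in germ cells of a library were compared. Each was higher in germ than in somatic cells there, but the cut on the germ cell level largely set this outcome beforehand. The median germ cell had 31268 UMIs at E11.5 and 15541 at E14.5, and the median somatic cell 13821 and 9865. Of 19208 distinct barcodes, 175 occurred in more than 1 library. Levels below are CPM, the UMIs of a gene summed over the cells of a class in a library and scaled to an equal total, with exact Poisson 95% intervals that cover counting error only. In a sum, fewer cells that express a gene and fewer molecules per cell cannot be told apart.

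Rec8, the meiotic kleisin, was nearly absent from germ cells at E11.5 and had more UMIs than any other kleisin by E14.5. Its level was 2.77, 7.51, 43.5 and 148 CPM in stage order, the first from 22 UMIs. Each stage lay above the one before with intervals that did not overlap. Between E11.5 and E14.5 the ratio was 53.3-fold, or 5.74 on the log2 scale (interval 5.14 to 6.41). With germ cells called from at least 2 of the 6 markers, the log2 ratio was 4.21. The steps between neighbouring stages were 2.71-fold, 5.79-fold and 3.39-fold, with the largest between E12.5 and E13.5.

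Smc1b, the meiotic partner of Smc3, was already present in germ cells at E11.5 and had the highest UMI level of the 9 members at E14.5. Its germ cell level was 58.5, 159, 308 and 1203 CPM in stage order. Its 3 steps were 2.72-fold, 1.94-fold and 3.90-fold, so that, unlike Rec8, its smallest step lay between E12.5 and E13.5. Over the whole interval it was 20.6-fold higher, 4.36 on the log2 scale (4.23 to 4.50).

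Stag3, which replaces Stag1 and Stag2 on the meiotic ring, differed less over the stages than Rec8 or Smc1b. Germ cells had 19.9, 31.3, 54.8 and 122 CPM. The ratio of E14.5 to E11.5 was 6.12-fold, 2.61 on the log2 scale (2.39 to 2.85).

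Rad21l, the other meiotic kleisin, came last. No UMI was found in germ cells of the first 3 stages, where 3 UMIs, taken as the limit that a count of 0 allows, would be 0.378, 0.156 and 0.154 CPM, and 136 UMIs at E14.5 gave 3.34 CPM (2.80 to 3.95). As measured, this was at least 21.6-fold higher than the floor of 3 UMIs over the germ cells at E13.5, without the counting error of the E14.5 level. Somatic cells had 0 UMIs in all 4 libraries, where 3 UMIs would be 0.131 CPM in the shallowest. At E14.5 Rad21l contributed 136 of the 6149 meiotic kleisin UMIs.

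With no replicate of a stage, a gene was called higher or lower by its size alone: a 4-fold ratio or more, separate Poisson intervals, 20 CPM or more in the higher library, and a sum of 50 UMIs or more. By this rule 3 of the 9 members, Rec8, Smc1b and Stag3, were higher in germ cells at E14.5 than at E11.5, and none was lower. Of all 5739 genes that met the minimums in this comparison, 6.46% were higher and 1.69% lower, and their median difference was 0.29 on the log2 scale. Of the members 7 met the minimums, and Stag2 and Rad21l stayed below 20 CPM. On a median-of-ratios scale, which moves all differences down by 0.38, the whole table had 173 higher and 171 lower calls in place of 371 and 97, with the same 3 members called higher. Without the CPM minimum Stag2 and Rad21l were called higher too, and at a ratio of 2 Smc3 was. Between E12.5 and E13.5 Rec8 was 1 of the 5 genes called higher, 0.0977% of those tested. No member was called between E11.5 and E12.5, where 0.0614% of genes were higher, or between E13.5 and E14.5, where 1.17% were.

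**Figure D1:**
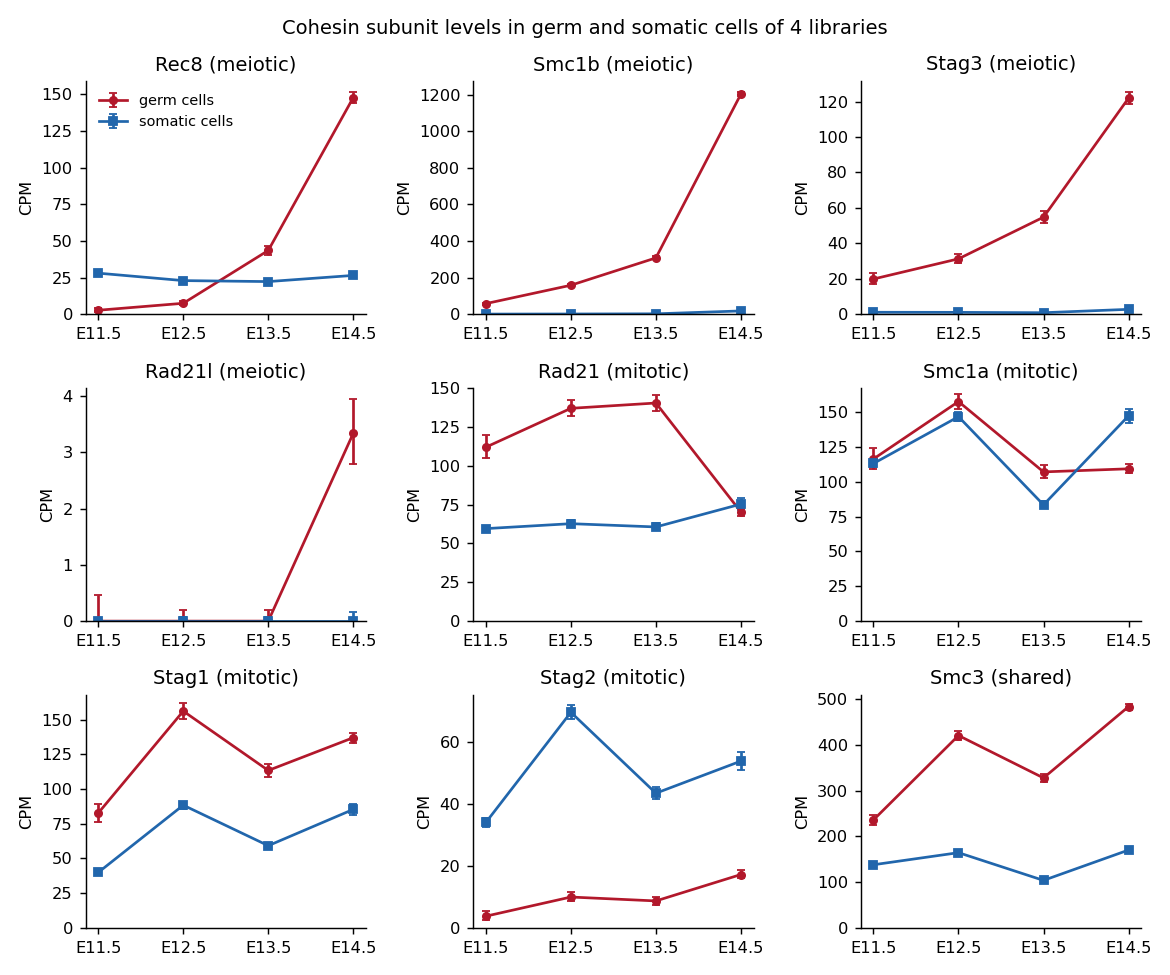
Level of each cohesin subunit (CPM, linear axes that start at 0 and differ between panels) in germ cells (red circles) and somatic cells (blue squares) of the 4 libraries, with exact Poisson 95% intervals. The germ cell curves of Rec8, Smc1b and Stag3 reach 148, 1203 and 122 CPM at E14.5, Rad21 is at 70.2 CPM there, and the somatic curve of Rec8 stays between 22.3 and 28.0 CPM.

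The mitotic kleisin Rad21 was lower in germ cells at the last stage than at any before. Its germ cell level was 112, 137 and 140 CPM at the first 3 stages and 70.2 CPM at E14.5. On the log2 scale the E14.5 level differed from that of E13.5 by -0.999 and from that of E11.5 by -0.67 (-0.78 to -0.56), short of the 4-fold rule. In somatic cells of the same libraries Rad21 was at 59.5, 62.7, 60.6 and 75.3 CPM, so its lower germ cell level at E14.5 was not shared by the somatic cells of that library.

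Smc1a, the mitotic SMC1 subunit, had 116, 157.5, 107 and 109 CPM in germ cells. The E14.5 level differed from that of E11.5 by -0.09 on the log2 scale, and the interval (-0.19 to 0.01) includes 0. Somatic cells had 113, 147, 83.4 and 147 CPM, with the E13.5 library lowest in both classes.

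Smc3, shared by both rings, had the most UMIs of the mitotic set in germ cells, at 236, 420.5, 328 and 484 CPM. Its E14.5 level was 2.05-fold that of E11.5. Stag1 had 82.7, 156, 113 and 137 CPM in germ cells, with a ratio of 1.66. Both were lower at E13.5 than at E12.5. On the log2 scale the germ cell differences were -0.36 and -0.46, and the somatic ones -0.66 and -0.58. For Smc1a they were -0.56 in germ and -0.81 in somatic cells. Because the same libraries were low in both cell classes, a library effect on these genes and a stage effect cannot be told apart.

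Stag2 was the scarcest mitotic member of germ cells. It had 3.78, 9.96, 8.70 and 17.2 CPM in germ cells and 34.0, 69.6, 43.5 and 53.8 CPM in somatic cells, so the classes did not overlap. Of the summed Stag1 and Stag2 UMIs, Stag2 made up 4.37%, 6.00%, 7.13% and 11.2% in germ cells and 46.0%, 44.1%, 42.3% and 38.7% in somatic cells. The mitotic STAG transcripts of germ cells were thus mostly those of Stag1 at all 4 stages.

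Set as shares within each position of the ring, the meiotic subunits gained ground at different stages. UMIs of a 3′ library count molecules and need no scaling for gene length, but genes can be captured unequally, so that a share is a share of UMIs only. At the kleisin position Rec8 and Rad21l made up 2.42%, 5.20%, 23.7% and 68.3% of germ cell UMIs (Clopper-Pearson 95% interval at E14.5 67.3% to 69.2%). With germ cells called from at least 2 markers the E11.5 kleisin share was 6.79%. At the SMC1 position Smc1b made up 33.5%, 50.2%, 74.2% and 91.7%, so that it already held a large share when the kleisin share was lowest. At the STAG position Stag3 made up 18.7%, 15.9%, 31.0% and 44.2%, and Stag1 and Stag2 still gave most UMIs at E14.5. In somatic cells Smc1b was 1.10%, 1.17%, 3.14% and 11.1% of its pair and Stag3 1.54%, 0.693%, 0.871% and 1.98%. The somatic kleisin share was 32.0%, 26.8%, 26.9% and 26.0%, all of it Rec8, and at the first 3 stages it was larger than the germ cell share.

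**Figure D2:**
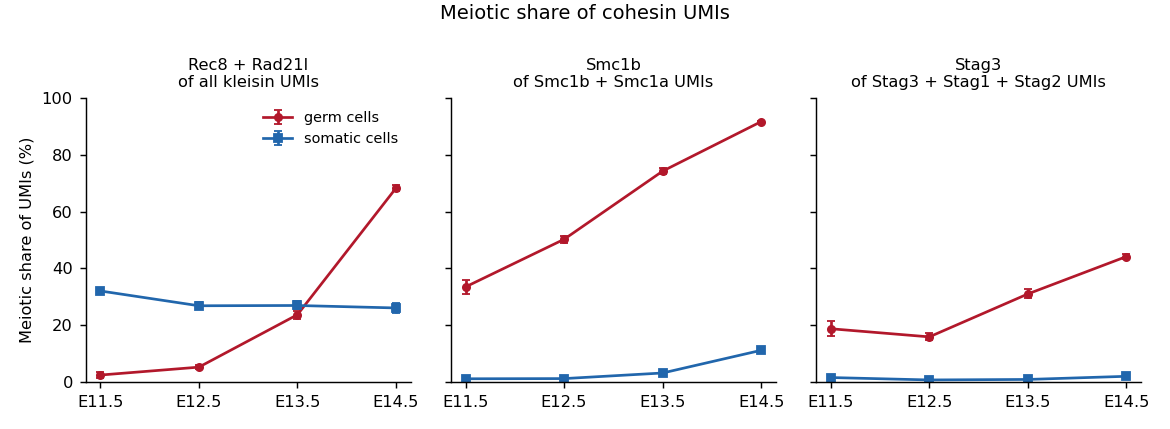
Meiotic share of UMIs (%) at the kleisin, SMC1 and STAG positions of the ring, by library, in germ cells (red circles) and somatic cells (blue squares), with Clopper-Pearson 95% intervals. Germ cell shares reach 68.3%, 91.7% and 44.2% at E14.5, and only at the kleisin position do somatic cells hold a share above 25% at each stage.

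Germ and somatic cells were then compared over the 4 libraries as replicates, by fitting limma to log2(CPM + 1) of the 8 sums. The library was a block, and p-values were adjusted by Benjamini-Hochberg over all 9866 genes tested. The 4 libraries are stages, so the test asks for a difference that they share. Of the 8 members tested 5 were higher in germ cells and 1 was lower, with a median of 0.82 on the log2 scale. Over all genes 26.3% were higher and 41.5% lower, with a median of -0.22. With TMM scaling 3895 genes were higher and 3065 lower, and with median-of-ratios scaling 3802 and 3278, in place of 2597 and 4099. These scalings move the median of all genes by 0.36 and 0.31, and the 6 calls of members kept their direction. Rad21l had too few UMIs to be tested.

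Smc1b and Stag3 were the members that separated the classes most. Smc1b was higher in germ cells by 5.73 on the log2(CPM + 1) scale (SE 0.265, limma adjusted p = 7.6e-06), in 4 of 4 libraries. For Stag3 the difference was 4.28 (SE 0.306, limma adjusted p = 4.0e-05), again in 4 of 4. The fit took genes with a mean of at least 5 CPM, and Stag3 reached that only through its germ sums. With no filter on low values the limma adjusted p was 6.6e-05 for Smc1b and 0.00022 for Stag3.

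Among the mitotic members, Smc3 was higher in germ cells by 1.32 (limma adjusted p = 0.00040) and Stag1 by 0.86 (limma adjusted p = 0.00060), each in 4 of 4 libraries. Stag2 was lower, at -2.34 (SE 0.226, limma adjusted p = 0.00015) in 4 of 4. Rad21 was higher by 0.78 (limma adjusted p = 0.020) but in 3 of 4 libraries only, since it was slightly lower in germ cells at E14.5. Its call was lost when any of the first 3 stages was left out (limma adjusted p = 0.060, 0.086 and 0.094), with differences of 0.74, 0.67 and 0.64. Without E14.5 its difference was 1.07. Smc1a did not pass (0.02, SE 0.15, limma adjusted p = 0.92), and its sign varied with the settings.

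Rec8 did not pass over the 4 libraries (-0.27, SE 0.823, limma adjusted p = 0.79), and its sign turned with the stage. On the log2 scale germ cells differed from somatic cells by -3.34 at E11.5 and by -1.61 at E12.5. They had more Rec8 than somatic cells at E13.5, by 0.96 (0.83 to 1.10), and at E14.5, by 2.48 (2.36 to 2.60). The sign of the mean over libraries was positive under TMM and median-of-ratios scaling, at 0.06 and 0.01, and without E11.5 it was 0.62.

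Detection per cell was compared after thinning every cell to 5000 UMIs at random, which left no cell out. In germ cells a Rec8 UMI was found in 1.22%, 3.85%, 20.8% and 50.4% of thinned cells. Smc1b was found in 27.3%, 51.7%, 70.4% and 96.0%, and Stag3 in 8.98%, 16.2%, 22.9% and 45.1%. Rec8 was found in fewer cells than Stag3 at the first 3 stages and in more at E14.5, the same order as in the sums. Rad21 was found in 33.9%, 48.8% and 47.2% and then in 24.6%. Without thinning, 81.2% of E14.5 germ cells had a Rec8 UMI.

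Few thinned germ cells had a Rec8 UMI before E13.5 (1.22% and 3.85%), so few could have both kleisins there. At E11.5 Rad21 alone was found in 33.9% of germ cells, Rec8 alone in 1.22%, and both in 0 of 245, which allows a share of up to 1.22%, or 3 cells. At E12.5 Rad21 alone was found in 46.5%, Rec8 alone in 10 of 650 cells and both in 15. At E13.5 Rec8 alone was found in 12.7%, Rad21 alone in 39.2% and both in 8.07%. At E14.5 the order was turned, with Rec8 alone in 39.5%, Rad21 alone in 13.7%, both in 10.9% and neither in 35.9%. Missing one of them in a thinned cell does not show that the transcript was absent from it.

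Counted over Rec8, Smc1b, Stag3 and Rad21l, germ cells with none of the 4 detected made up 64.5%, 39.4%, 19.97% and 2.199% in stage order. No E11.5 germ cell had 3 or more, which by the same limit allows a share of up to 1.22%, and exactly 3 were found in 0.308%, 5.29% and 24.1% at the later stages. All 4 were found in 10 of 2410 E14.5 germ cells. In somatic cells the share with none was 87.1%, 88.3%, 89.0% and 79.1%, and nearly all others had exactly 1.

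**Figure D3:**
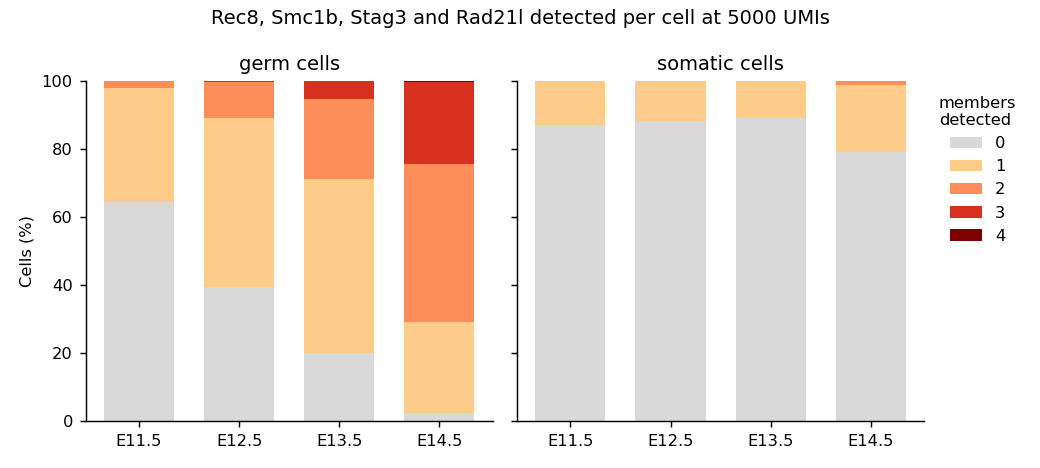
Share of cells (%) with 0 to 4 of Rec8, Smc1b, Stag3 and Rad21l detected after thinning to 5000 UMIs, stacked by library, in germ cells (left) and somatic cells (right). The share of germ cells with none is 64.5% at E11.5 and 2.199% at E14.5, and the share with exactly 3 reaches 24.1%.

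E14.5 germ cells also differed among themselves. They were split by detection of Stra8, and by that of Pou5f1, a pluripotency gene of early germ cells, and Sycp3, a protein of the chromosome axis. Detection was taken after thinning to 5000 UMIs, so that a cell without a UMI there can hold one at full depth, while levels are from all UMIs of the cells. At full depth 2290 E14.5 germ cells had a Stra8 UMI and 2086 a Sycp3 UMI. Cells of 1 library are not replicates, so these are descriptions with counting intervals. The 2106 E14.5 germ cells with a Stra8 UMI after thinning had 166.5 CPM of Rec8, against 47.8 in the 304 without. Smc1b was 1336 against 500.3 CPM and Stag3 134 against 57.7, so the 3 meiotic members were higher together. Rad21 was 60.6 CPM with a Stra8 UMI and 121.5 without, and Smc1a was 102 against 146. The cells with a Stra8 UMI were shallower, with a median of 15207 UMIs against 20108.5. At E13.5, where 242 of 756 germ cells had a Stra8 UMI after thinning and 385 at full depth, Rec8 was 93.4 against 23.4 CPM and Rad21 119 against 149.

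Along the split by Sycp3 and Pou5f1 the meiotic members did not move alike. Rec8 was 119 CPM in the 864 cells without Sycp3 after thinning, 172 in the 655 cells with both genes and 163 in the 891 cells with Sycp3 and without Pou5f1. Smc1b kept differing across the same classes, at 719, 1177 and 1819 CPM. Stag3 was 79.3, 116 and 179 CPM. Rad21l, at 0.728, 3.23 and 6.64 CPM, had 89 of its 136 UMIs in the last class. Rad21 went the opposite way, at 99.1, 67.3 and 37.0 CPM, and Smc1a likewise at 131, 106 and 85.0 CPM. Stag1 was nearly level, at 134, 134.5 and 143 CPM, and Stag2 was 15.2, 14.1 and 22.2 CPM.

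**Figure D4:**
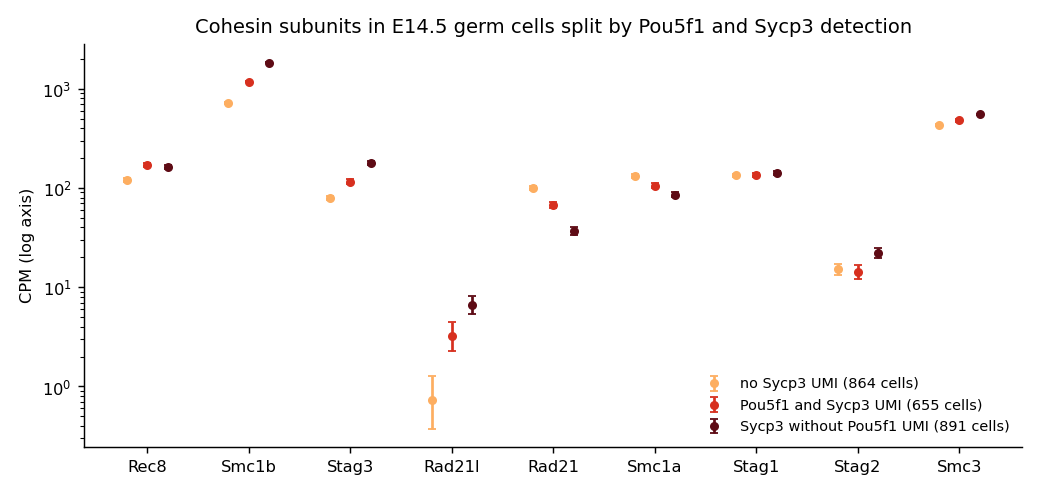
CPM (log axis) of the 9 subunits in E14.5 germ cells without a Sycp3 UMI, with Pou5f1 and Sycp3 UMIs, and with Sycp3 but no Pou5f1 UMI, as detected after thinning to 5000 UMIs, with exact Poisson 95% intervals. Smc1b, Stag3 and Rad21l are highest and Rad21 and Smc1a lowest in the last class, whereas Rec8 stands at 172 and 163 CPM in the last 2.

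Clusters built without the 9 members in the features gave the same order in finer steps, as a description only. E14.5 germ cells of cluster 6, led by Dppa5a and Rhox9, had 21.4 CPM of Rec8 and 146 of Rad21. Those of cluster 9, led by Dazl and Rhox9, had 92.9 and 119. Cluster 13, led by Stra8, had the highest Rec8 level, 237 CPM (227 to 247), with 46.8 of Rad21 and 968 of Smc1b. In cluster 10, with Stra8, Sycp3 and Sycp1 among its leading genes, Rec8 was 169 CPM (162 to 177), Rad21 26.3 and Smc1b 2151. Rad21l was 9.35 CPM in cluster 10 and at most 0.748 in clusters 6, 9 and 13. The highest Rec8 level and the highest Smc1b, Stag3 and Rad21l levels thus lay in different clusters.

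Genes of cell division (Mki67, Top2a, Cdk1, Ccnb1 and Aurkb), chosen after the values had been seen, were found in nearly all germ cells. After thinning, 91.8%, 94.8%, 90.7% and 88.8% of germ cells had a UMI of at least 1 of them. At E14.5 Rad21 was 71.8 CPM in germ cells with such a UMI and 56.2 in those without, against 140 and 148 at E13.5. Rad21 was thus lower at E14.5 than at E13.5 in both groups, and the cause of its lower level was not tested.

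In somatic cells Rec8 was the meiotic member with the most UMIs. It had 28.0, 23.0, 22.3 and 26.5 CPM in stage order. No member was called between E11.5 and E14.5 in somatic cells, where 0.923% of all genes were higher and 0.61% lower by the rule of size. In thinned cells a Rec8 UMI was found in 11.9%, 10.9%, 9.43% and 11.9% of somatic cells.

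Free RNA from germ cells adds UMIs of germ cell genes to other cells of the same library, at 1 ratio for all genes from that source. The germ cell genes outside the rule, used where they had at least 50 CPM in germ cells, had a median somatic level of 1.76%, 1.36%, 1.08% and 1.72% of their germ cell level. For Rec8 this percentage was 1012%, 306%, 51.3% and 17.9%. For Smc1b it was 2.16%, 1.09%, 0.878% and 1.53%, close to the median, and for Stag3 5.81%, 3.52%, 1.65% and 2.30%. At the median percentage the germ cell level of Rec8 would add 0.0487, 0.102, 0.468 and 2.54 CPM to somatic cells. The highest percentage of the list in each library was that of Mybl2, a transcription factor gene also used by dividing cells, at 8.12%, 8.04%, 7.33% and 18.7%, and at E14.5 that percentage lies above that of Rec8. At the highest percentage germ cell Rec8 would add 0.225, 0.603, 3.19 and 27.7 CPM, the last above the measured 26.5. Somatic cells with 0 of the 6 germ cell markers had 27.2, 22.6, 20.8 and 23.8 CPM of Rec8.

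Among the named somatic classes, Rec8 was highest in the pre-granulosa-like cells, the supporting cells of the fetal ovary. These cells, named from Fst, Irx3, Wnt6, Kitl and other fixed markers, had 48.8, 38.9, 39.4 and 47.1 CPM. Interstitial-like cells, named from collagen genes, Pdgfra and Tcf21, had 12.501, 5.06, 2.25 and 6.41 CPM. The intervals of these classes did not overlap in any of the 4 libraries. In thinned cells a Rec8 UMI was found in 19.7%, 16.7%, 16.5% and 21.7% of pre-granulosa-like and in 5.60%, 2.11%, 1.19% and 2.84% of interstitial-like cells, whose median depths at E14.5 were 9224 and 10106 UMIs. Different clusters held most of each class at E11.5 than later: cluster 2 and then cluster 1 for the pre-granulosa-like cells, and cluster 11 and then clusters 7, 8 and 7 for the interstitial-like cells. At E14.5 free RNA at the median percentage would give 2.54 CPM, below the interstitial level of 6.41 CPM, whose source was not tested. The highest percentage, that of Mybl2, a gene also used by dividing cells, would give 27.7 CPM. That lies above the interstitial level and above the 2.13 CPM, from 1 UMI, of immune-like cells in that library.

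By cluster, the highest Rec8 levels over all libraries were 57.5 CPM (53.8 to 61.4) in cluster 5 and 54.4 in cluster 2, both pre-granulosa-like. The lowest among somatic clusters with a somatic name were 1.87 CPM (1.28 to 2.64) in cluster 7, interstitial-like, and 3.09 in cluster 19, immune-like. Cluster 4, unnamed and led by Upk3b and Krt19, which mark the mesothelial surface, had 26.3 CPM over all libraries. It had 8 mesothelial but also 7 pre-granulosa markers raised, so it was given no name. By library it had 33.9, 16.5, 22.1 and 36.9 CPM, and at E14.5 it gave 192 of the 605 somatic Rec8 UMIs. An unnamed cluster with 8 raised endothelial markers, cluster 15, had 5.25 CPM in all, but 1.08 and 2.02 CPM at E11.5 and E12.5 and 11.4 and 14.1 at E13.5 and E14.5.

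**Figure D5:**
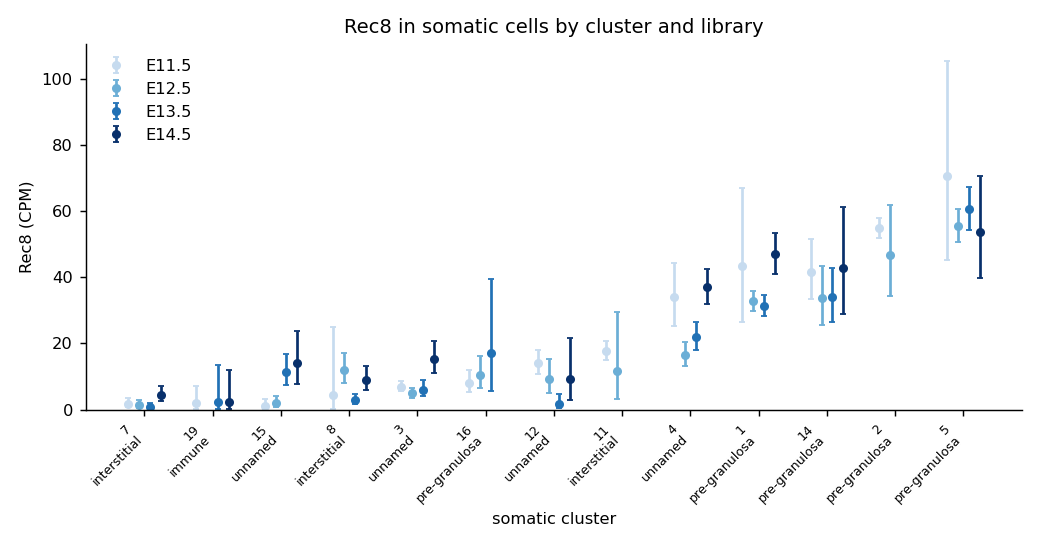
Rec8 level (CPM, linear axis from 0) in the somatic cells of each cluster, ordered by the level over all libraries, with 1 point per library that had at least 20 cells and exact Poisson 95% intervals. The points of pre-granulosa clusters 1, 2, 5 and 14 lie above those of interstitial clusters 7, 8 and 11, and pre-granulosa cluster 16, led by division genes, lies among the low clusters.

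The exception among the pre-granulosa-like clusters was cluster 16, whose leading genes included Aurkb, Plk1, Ccnb1 and Cdk1. It had 9.82 CPM of Rec8 and 118 of Rad21, whereas the other pre-granulosa-like clusters had 34.4 to 57.5 and 36.7 to 42.6. Leaving out the 55 somatic cells of germ cluster 6, the other clusters with a division-gene UMI in over 90% of thinned cells were clusters 3 and 7, at 96.9% and 94.6%, and they too had low Rec8 (7.01 and 1.87 CPM) and high Rad21 (114 and 116). Rec8 was also low in clusters where fewer cells had such a UMI. Clusters 8, 11 and 12, at 26.8%, 24.1% and 28.9% of thinned cells, had 6.26, 17.6 and 9.86 CPM of Rec8. Clusters are defined on the genes of these cells, so this is a description and not a test.

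Somatic cells with a division-gene UMI after thinning had more Rad21 and less Rec8 in each library. Rad21 was 82.7, 93.6, 96.0 and 109 CPM in them and 38.4, 37.5, 42.4 and 47.9 in the other somatic cells. Rec8 was 16.2, 12.52, 11.8 and 15.5 CPM against 38.9, 31.5, 27.7 and 35.4. Within the pre-granulosa-like cells the Rec8 difference was seen at E11.5, at 38.9 against 53.2 CPM. At the 3 later stages the intervals overlapped, at 37.4 against 39.3, 39.4 against 39.4 and 48.5 against 46.9. Cells without a division-gene UMI had 53.2, 39.3, 39.4 and 46.9 CPM of Rec8 when pre-granulosa-like and 17.8, 10.8, 3.31 and 8.27 when interstitial-like, so the class difference was present among them as well.

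Smc1b and Stag3 were scarce in somatic cells before E14.5. Smc1b had 1.26, 1.74, 2.71 and 18.5 CPM in somatic cells, and Stag3 1.16, 1.10, 0.902 and 2.80. At E14.5 Smc1b had 16.7 CPM in pre-granulosa-like, 20.05 in interstitial-like and 19.2 in immune-like cells, with overlapping intervals. The E14.5 library was 51.4% germ cells, against 5.11% at E11.5. The source of the somatic Smc1b UMIs was not tested, and somatic cells with 1 Smc1b UMI are not counted here as expressing it.

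The loading, release and cohesion factors act on both forms of the ring. Of the 19 such genes in the table, 16 met the minimums in germ cells between E11.5 and E14.5 and none was called, which at 6.46% higher and 1.69% lower over all genes is near the background. Their median was 0.46 on the log2 scale. Nipbl, the cohesin loader, had the highest ratio, from 36.2 to 137 CPM, which is 1.92 on the log2 scale and just under the 4-fold cut, and Cdca5, the sororin gene that stabilises cohesion, the lowest, from 63.6 to 23.1. Esco2, an acetyltransferase that establishes cohesion, was 97.2, 211, 138 and 284 CPM.

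Between germ and somatic cells 11 of the 18 factors tested were higher and 1 lower by limma, with a median of 0.64 on the log2 scale, where all genes had 26.3%, 41.5% and -0.22. Esco2 was higher by 3.26 (limma adjusted p = 6.4e-06) and Espl1, the separase that cleaves kleisins, by 2.59. Wapl, which releases cohesin, was higher by 1.04, and the shugoshins Sgol1 and Sgol2a, which protect centromeric cohesin, by 1.47 and 1.75. Hdac8, which deacetylates Smc3, was lower, at -1.73 (limma adjusted p = 0.00061), with 1.25 to 4.37 CPM in germ and 9.52 to 11.48 in somatic cells. Nipbl and Mau2, the loader pair, and Ctcf, which stops loop extrusion, gave -0.23, -0.06 and -0.47 and did not pass. Meikin, a meiotic protector of Rec8, had 0.196 CPM in E14.5 germ cells and 0 in all other sums.

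Of 9 chromosome axis and synaptonemal complex genes 7 were higher in germ cells at E14.5 than at E11.5 by the rule of size, with a median of 3.73 on the log2 scale, where 6.46% of all genes were. Between E13.5 and E14.5, where 1.17% of all genes were higher, 4 of the 9 were called. Sycp1, which zips homologs together, went from 4.91 to 17.4, 61.8 and 435 CPM, and Sycp3 from 16.8 to 26.3, 42.9 and 331. Against somatic cells all 8 tested were higher by limma, with a median of 4.36, where 26.3% of all genes were higher. The fit took genes with a mean of at least 5 CPM, which germ sums alone can supply, as for Stag3. In somatic cells only 1 of the 9 met the minimums of the size rule between E11.5 and E14.5. The count of 8 is therefore partly set by that filter.

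Of 11 other SMC genes, those of condensin and SMC5/6 and Smchd1, an SMC protein of X inactivation, none was called between E11.5 and E14.5 in germ cells, where 6.46% of all genes were higher and 1.69% lower. They had a median of 0.79 on the log2 scale. Smc6 had the highest ratio, from 143 to 431 CPM. Against somatic cells 10 of the 11 were higher by limma and none lower, with a median of 0.80, where 26.3% of all genes were higher and 41.5% lower. Smc5 was the gene that did not pass, at -0.16 (limma adjusted p = 0.32).

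The genes whose pattern was most like that of each meiotic member were found by Pearson's r of log2(CPM + 1) over the 8 sums among 7420 genes with at least 20 CPM in any sum. The 8 sums share their 4 libraries, so r is a description. For Rec8 these were Macrod1, Tubgcp4, Serf1, Vrk2 and Gmcl1, with r from 0.975 to 0.991. Macrod1, the closest, had 2.02, 3.44, 12.2 and 32.0 CPM in germ cells and 7.26 to 8.19 in somatic cells, the same crossing of the classes between E12.5 and E13.5. For Smc1b they were Stk31, Tuba3a, Slc25a31, Mael and Rbm46, for Stag3 Tex14, Cdkn2a, Gpat2, Map7d2 and Cystm1, all higher in germ than in somatic sums of each library. For Rad21l they were Lypd4, Nelfe, Them4, Prdm9 and Ints5, of which Prdm9, the gene that places meiotic recombination hotspots, had at most 1.24 CPM in germ cells before E14.5 and 33.8 there. Mael is among the 6 genes that define the germ cells, and no gene was shared between any of the 4 lists.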

How the data were processed

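Single-cell 3′ RNA libraries of XX gonads, 1 per stage, were used as the natural log values deposited by the authors, ln(1 + UMIs / cell total × 10000) per gene and cell. Reads were processed with Cell Ranger 2.2.0 and mm10, per the submitters' processing notes. Whole UMIs were recovered from all 69792436 values above 0. Cells over 20% mitochondrial UMIs (5 in all) and called doublets (94 to 120 per library, 1.96% to 2.44%) were left out, and cells of erythroid clusters or over 10% haemoglobin UMIs were not counted as somatic. Germ and somatic UMIs were summed per library. Cells were clustered with Leiden (scanpy 1.11.5, leidenalg 0.10.2) without the cohesin genes and their regulators, and named where at least 3 fixed markers of a class were raised, unless a second class had 5 or more raised or the leading genes went against the name. Germ and somatic sums were compared with limma 3.58.1 (R 4.3.3) on log2(CPM + 1), over genes with a mean of at least 5 CPM. Tested on simulated data, the fit recovered 200 of 200 genes at 4-fold and the size rule 199 of 200 at 8-fold. Only 200 genes were changed there, and the sums given to the fit held no stage differences. Recovery at the spread of these data was therefore not measured. Alternatives were the marker cut, cell filters, scaling, thresholds, thinning depth, clustering resolution and leaving out each library. The planned count model was not run, since the deposited unit is a log value. All 9 members were named, with the 5 most alike genes per meiotic member and all lists by count. The members and lists were chosen with earlier results of these data known.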

Additional observations from a re-analysis of the deposited data

Results flagged for a closer look

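Rec8 differed between germ and somatic cells in opposite directions at different stages. The difference was -3.34 on the log2 scale at E11.5 and 2.48 at E14.5. Germ cells thus had less of it at the first stage and more at the last. Rad21 had a difference of 1.21 at E13.5 and of -0.10 at E14.5. Smc1a had 0.36 at E13.5 and -0.43 at E14.5. Each stage is 1 library, so the difference between stages was not tested.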

How the results depend on the processing

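The mean germ minus somatic difference of Rec8, -0.27 on the log2 scale, changed sign with at least 2 of the 6 markers (0.048), TMM scaling (0.060) and median-of-ratios scaling (0.011), and ranged from -1.17 without E14.5 to 0.62 without E11.5. That of Smc1a, 0.02, changed sign with at least 2 markers (-0.011), somatic cells with 0 markers (-1.8e-05) and erythroid cells kept (-0.0011), and ranged from -0.095 without E13.5 to 0.17 without E14.5 when 1 library was left out. It was 0.38 with TMM and 0.33 with median-of-ratios scaling (limma adjusted p = 0.072 and 0.12). Neither gene passed the test under any of these settings. The germ against somatic count of 6696 genes was 10941 with no filter on low values, 6200 with no replicate block, and 5354 to 7020 with 1 library left out. The 468 genes called between E11.5 and E14.5 in germ cells became 1934 with no CPM minimum and 1747 at a ratio of 2, with 5 and 4 members called in place of 3. The log2 ratio of Rec8 over these stages was 4.21 with at least 2 markers. With at least 2 markers the E11.5 kleisin and SMC1 shares were 6.79% and 29.7%, and the E14.5 kleisin, SMC1 and STAG shares 67.0%, 91.1% and 42.9%. With equal weight per cell the last 3 were 72.2%, 92.8% and 45.8%. Without cells whose cluster name goes against their markers, chosen after seeing the data, the E14.5 SMC1 share was 92.1%. Somatic Rec8 was 24.9 CPM at E12.5 with equal weight, 20.8 at E13.5 and 23.8 at E14.5 in cells with 0 markers, 22.2 at E14.5 with erythroid cells kept and 22.7 in cells of at least 10000 UMIs. E14.5 germ cells with a UMI were 26.1%, 83.6% and 21.5% for Rec8, Smc1b and Stag3 at 2000 UMIs, and 81.2%, 99.1% and 80.1% unthinned. The highest Rec8 level of a somatic cluster was 52.3 CPM at resolution 0.5 and the lowest 1.10 at resolution 2. No setting reversed a called difference of a member. The count model was not run. Depth limits Rad21l and Stag2 in germ cells, and 1 library per stage leaves stage differences untested. The cause of these shifts was not tested.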
